A study of Mus musculus with 8 samples.

Results

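The TNF superfamily genes described here are 10 genes of T cell costimulation, cell death and lymphotoxin signalling: the receptor genes Tnfrsf4, Tnfrsf18, Tnfrsf9, Tnfrsf1a, Tnfrsf1b, Cd27 and Fas and the ligand genes Lta, Ltb and Tnfsf14. They were taken from a written list of symbols, and every probe set (a group of array probes that reads 1 transcript) whose single symbol in the platform annotation is on that list was used. This gave 14 probe sets for the 10 genes, of 12393 genes with such a probe set and 22626 probe sets tested. The RNA came from lines of mouse T cell lymphoma deficient in Snf5, a chromatin remodelling subunit encoded by Smarcb1. Cells of these lines had been sorted by surface CD44, an adhesion receptor for hyaluronan, so that 4 arrays hold CD44hi and 4 arrays hold CD44lo subpopulations. Snf5 deficiency is common to both groups, so no comparison here concerns the loss of Snf5. The labels give neither the number of lines, nor the age or strain of the animals, nor whether replicates came from separate cultures, so p-values measure how far these 8 arrays vary, and that variation may be technical.

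TNF superfamily receptors are switched on by trimeric ligands of neighbouring or the same cells. Receptors with a cytoplasmic death domain, such as Fas and Tnfrsf1a, can start caspase-driven cell death, whereas the costimulatory receptors bind TRAF adaptors and feed NF-kappaB, which promotes survival and cytokine production of activated T cells. Lymphotoxins, made by activated lymphocytes, act in the formation of lymphoid organs.

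The plot of values by array shows all 14 probe sets at once. Levels are log2 of the deposited intensity. The array medians lay between 8.32 and 8.41, and the medians of 27 unspiked Bacillus control probe sets, which read no mouse transcript and mark the background, lay between 3.95 and 4.12. Cd44 differed by 5.89 and 7.99 in the labelled direction with its 2 probe sets. Of the T cell markers, Cd3d averaged 14.14 in CD44hi and 14.18 in CD44lo, while Thy1, a surface glycoprotein of T cells, averaged 4.47 in CD44hi and 4.55 in CD44lo, close to the background. Cd8a averaged 13.86 in CD44hi and 13.87 in CD44lo with its brighter probe set. Cd4 was low, at 5.23 in CD44hi and 5.17 in CD44lo with its brighter probe set. Of the 7 T cell markers measured, 0 were called. A probe set was called where limma's Benjamini-Hochberg adjusted p over all probe sets was under 0.05, and fewer cells with a transcript cannot be told apart from less RNA per cell.

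**Figure D1:**
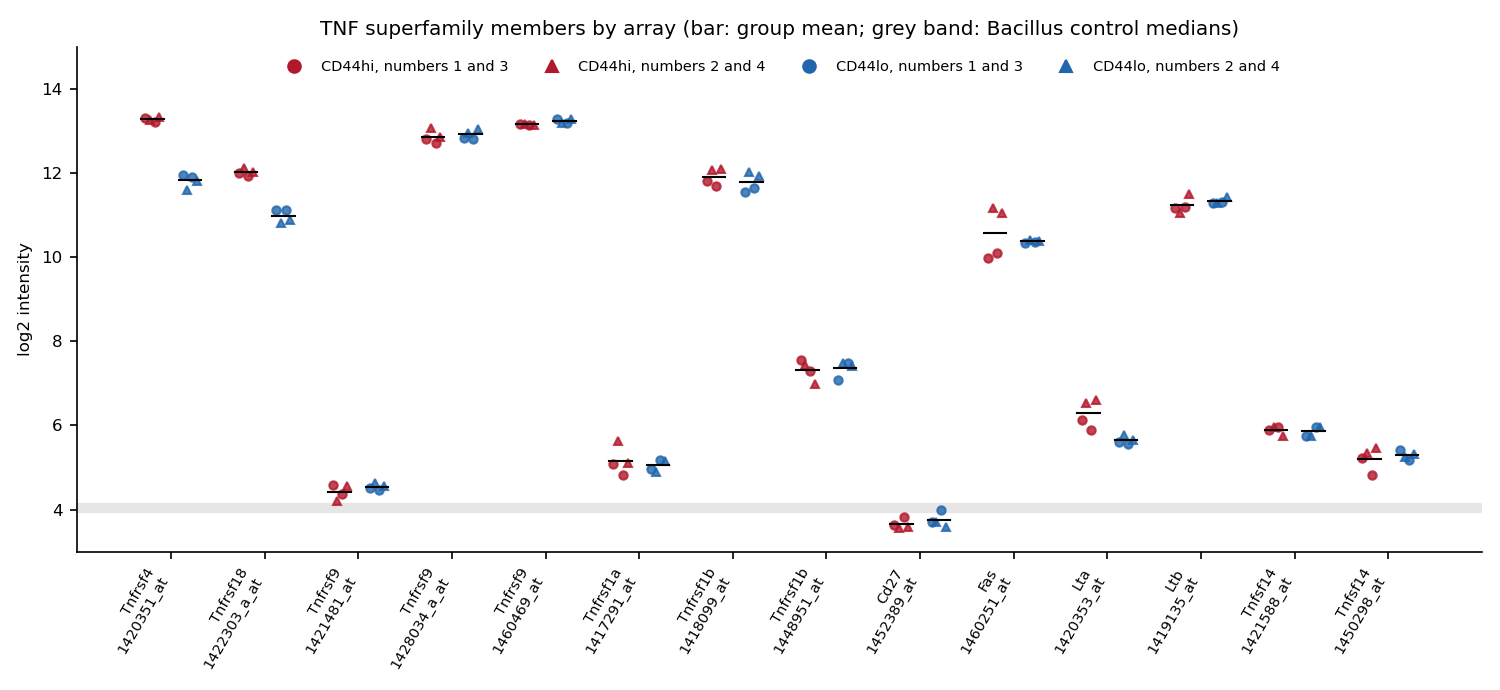
Log2 intensity of the 14 probe sets of the 10 genes on each of the 8 arrays (circles, replicate numbers 1 and 3; triangles, numbers 2 and 4), with CD44hi in red to the left of CD44lo in blue, a bar at each group mean and a grey band from 3.95 to 4.12 at the Bacillus control medians. Tnfrsf4 and Tnfrsf18 are separated between the groups, and the CD44hi values of Fas lie on both sides of its CD44lo values.

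Tnfrsf4, which codes for OX40, and Tnfrsf18, which codes for GITR, were the members that rose in CD44hi. These costimulatory receptors are induced on activated T cells and are abundant on regulatory T cells. No member fell. Of the 14 probe sets, 2 were called, both higher in CD44hi. Over all probe sets 3.12% were called in either direction, 1.64% higher and 1.48% lower.

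Tnfrsf4 had 13.31, 13.26, 13.22 and 13.33 in CD44hi replicates 1 to 4, against 11.97, 11.61, 11.90 and 11.82 in CD44lo. The groups did not overlap, with means of 13.28 ± 0.05 in CD44hi and 11.83 ± 0.16 in CD44lo (SD, 4 arrays each). The difference was 1.46 on the log2 scale (SE 0.09, 2.74-fold, limma adjusted p = 4.46e-05), larger in size than that of 99.3% of all probe sets. Tnfrsf18 had 12.01, 12.13, 11.93 and 12.03 in CD44hi, against 11.12, 10.82, 11.11 and 10.89 in CD44lo. Every CD44hi array was again above every CD44lo array, at 12.03 ± 0.08 for CD44hi and 10.99 ± 0.15 for CD44lo (SD, n = 4 each). Its difference was 1.04 (SE 0.09, 2.05-fold, limma adjusted p = 0.00038). At each replicate number the 2 genes differed in the same direction, by 1.32 to 1.65 for Tnfrsf4 and by 0.82 to 1.31 for Tnfrsf18, and for each gene the differences at numbers 2 and 4 exceeded those at 1 and 3. The change of the difference between those sets of numbers was not called for either gene (limma interaction adjusted p = 0.529 for Tnfrsf4 and 0.228 for Tnfrsf18). When arrays 1 and 3, and arrays 2 and 4, of each group were averaged to 1 value each, since they resembled each other, the differences stood but were not called (limma adjusted p = 0.0966 for Tnfrsf4 and 0.190 for Tnfrsf18), and only 16 probe sets of the whole table were.

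Tnfrsf4 and Tnfrsf18 are neighbours on mouse chromosome 4 in the RefSeq table. Upstream of them lie B3galt6 and then Sdf4, which codes for a calcium-binding protein of the Golgi lumen and whose annotated span overlaps the start of Tnfrsf4. Sdf4 averaged 14.11 in CD44hi and 13.68 in CD44lo with its brighter probe set, a difference of 0.43 (SE 0.07, limma adjusted p = 0.0095). That call was lost with arrays 2 and 4 alone (limma adjusted p = 0.149) and with averaged arrays (0.536). The dimmer Sdf4 probe set differed by 0.48 without passing (limma adjusted p = 0.0746). B3galt6, a sugar transferase gene, differed by 0.13 and 0.15 with its 2 probe sets, and neither was called. The genes on the other side, Ttll10 and Gm13648, and those between, Gm16008 and Gm25982, are not analysed here. Tnfrsf9 and Tnfrsf1b lie farther off on the same chromosome and were not called.

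The promoters of Tnfrsf4 and Tnfrsf18 are shown because these genes moved together, and that of Lta because its values come next in size. Each runs from 250 bases before to 50 bases from the annotated start, 5′ to 3′ along the gene, from RefSeq (GRCm38.p6): chr4:156013445-156013744 on the plus strand for Tnfrsf4, chr4:156026072-156026371 on the plus strand for Tnfrsf18 and chr17:35205302-35205601 on the minus strand for Lta. Capitals mark matches, on either strand, to 4 motifs, where matches may overlap. The AP-1 motif was read as TGANTCA, that of STAT proteins as TTCNNNGAA and that of GATA factors as AGATAA, and for NF-kappaB its degenerate consensus was used.
Tnfrsf4 promoter: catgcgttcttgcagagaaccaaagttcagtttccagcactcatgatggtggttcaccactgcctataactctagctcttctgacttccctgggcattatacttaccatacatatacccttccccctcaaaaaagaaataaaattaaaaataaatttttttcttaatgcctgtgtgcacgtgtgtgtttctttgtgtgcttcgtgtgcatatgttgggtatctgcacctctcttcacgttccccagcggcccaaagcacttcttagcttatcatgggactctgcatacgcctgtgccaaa
Tnfrsf18 promoter: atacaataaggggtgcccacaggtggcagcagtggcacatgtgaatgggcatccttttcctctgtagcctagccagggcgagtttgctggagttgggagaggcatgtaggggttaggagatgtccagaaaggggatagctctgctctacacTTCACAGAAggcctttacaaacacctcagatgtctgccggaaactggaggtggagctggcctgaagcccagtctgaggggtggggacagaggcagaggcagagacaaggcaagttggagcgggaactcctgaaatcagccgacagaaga
Lta promoter: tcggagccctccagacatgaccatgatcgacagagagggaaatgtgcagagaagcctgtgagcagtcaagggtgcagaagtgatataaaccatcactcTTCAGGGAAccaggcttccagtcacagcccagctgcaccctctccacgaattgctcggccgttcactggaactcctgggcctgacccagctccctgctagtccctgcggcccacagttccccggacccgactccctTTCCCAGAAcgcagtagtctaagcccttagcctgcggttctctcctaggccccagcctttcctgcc
No capitals appear in the Tnfrsf4 sequence, so none of the 4 motifs, as read here, has its letters there. Other forms of the GATA motif were not searched. The Tnfrsf18 sequence holds 1 STAT match, TTCACAGAA. The Lta sequence holds 2 STAT matches, TTCAGGGAA and TTCCCAGAA. Of the 11 promoters listed for the 10 genes (Tnfrsf9 has 2), 7 hold the STAT letters, 3 those of AP-1, 2 those of NF-kappaB (Ltb and 1 of Tnfrsf9) and 0 those of GATA. Among 32851 promoters of this length the shares are 8.30% for STAT, 7.81% for AP-1, 4.51% for NF-kappaB and 11.2% for GATA. A match is a description of the letters and not a binding site.

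The ligands of the 2 called receptors could be followed in part. Tnfsf4, the OX40 ligand gene, was near the background in both groups, at 4.63 ± 0.15 for CD44hi and 4.54 ± 0.25 for CD44lo (SD, n = 4 each). Tnfsf18, the GITR ligand gene, is not analysed here.

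Tnfrsf9 codes for CD137, another costimulatory receptor of activated T cells, and its 2 bright probe sets gave no call. With its brightest probe set it had 13.16, 13.17, 13.14 and 13.16 in CD44hi, against 13.28, 13.19, 13.20 and 13.30 in CD44lo. These values did not overlap, yet the difference was only -0.08 (95% interval -0.23 to 0.07, limma adjusted p = 0.772). Groups did not overlap in 4 of the 14 probe sets (Tnfrsf4, Tnfrsf18, Lta and this one), against 9.34% of all probe sets. The other bright probe set differed by -0.06 (95% interval -0.28 to 0.17), and its groups overlapped. The remaining Tnfrsf9 probe set averaged 4.43 in CD44hi and 4.54 in CD44lo, near the background, and gives no measure of the transcript. The intervals of the bright probe sets thus hold no difference as large as that of Tnfrsf4 or Tnfrsf18.

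The TNF receptors and Cd27 gave no call. Tnfrsf1b, the receptor found mainly on lymphocytes and other blood cells, had 11.80, 12.08, 11.70 and 12.09 in CD44hi, against 11.54, 12.03, 11.65 and 11.94 in CD44lo, with its bright probe set. The groups overlapped and the difference was 0.13 (95% interval -0.19 to 0.44, limma adjusted p = 0.859). Its dimmer probe set differed by -0.05. Tnfrsf1a, the widely expressed death domain receptor, was at 5.16 ± 0.34 for CD44hi and 5.05 ± 0.14 for CD44lo (SD, n = 4 each), below the 25th percentile of all values (5.26). Its spread in CD44hi came from replicate 2, at 5.63, while the other CD44hi values were 4.81 to 5.10. Cd27, a costimulatory receptor of naive and memory T cells, lay at or below the Bacillus control range on every array, from 3.55 to 3.82 in CD44hi and from 3.58 to 3.99 in CD44lo. Its ligand gene Cd70 was also low, at 4.40 in CD44hi and 4.27 in CD44lo.

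**Figure D2:**
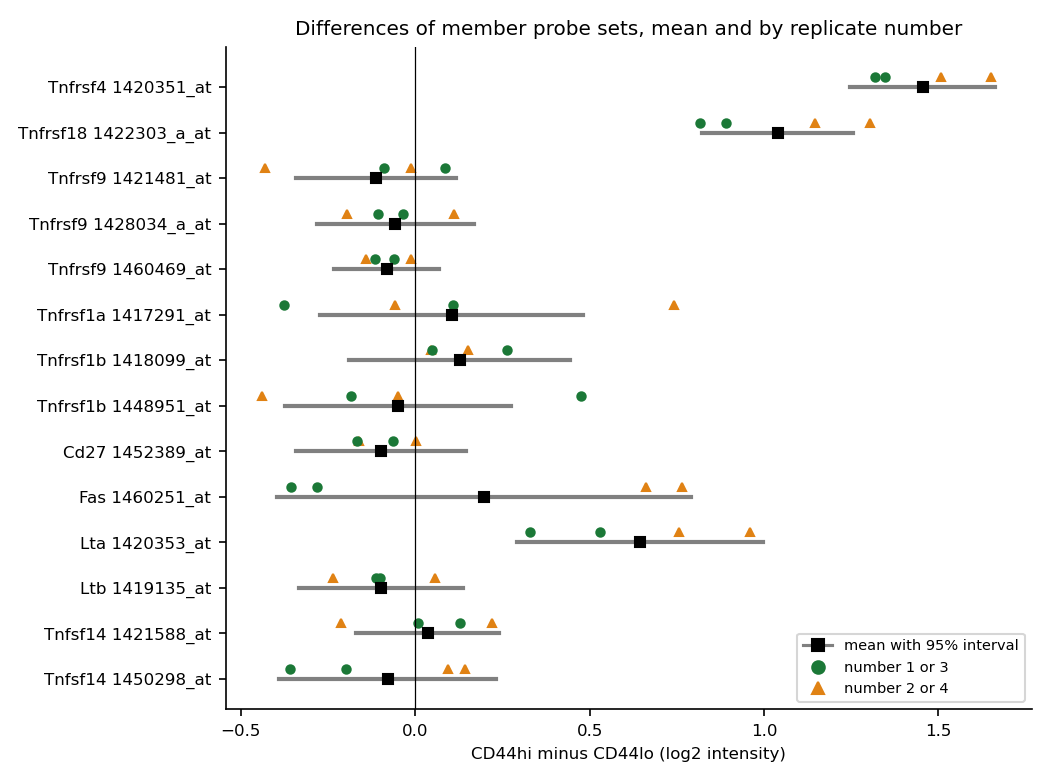
CD44hi minus CD44lo in log2 intensity for each of the 14 probe sets: squares and grey lines give the limma estimate with its 95% interval, and small symbols above them the difference at each replicate number (circles, 1 or 3; triangles, 2 or 4). The intervals of Tnfrsf4, Tnfrsf18 and Lta lie above 0, and the differences of Fas are below 0 at numbers 1 and 3 and above 0 at 2 and 4.

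Fas, the death receptor that limits activated T cells, had 9.99, 11.16, 10.09 and 11.05 in CD44hi replicates 1 to 4, against 10.35, 10.40, 10.37 and 10.38 in CD44lo. The CD44lo arrays were nearly equal, while CD44hi arrays 1 and 3 lay below all of them and CD44hi arrays 2 and 4 above all of them. The mean difference of 0.20 (95% interval -0.40 to 0.79, limma adjusted p = 0.894) therefore describes none of the arrays. At numbers 1 and 3 CD44hi minus CD44lo was -0.32, and at numbers 2 and 4 it was 0.71. The change between those sets, -1.03 (SE 0.12), was called (limma interaction adjusted p = 0.0226), which held for 1 of the 14 probe sets and for 0.857% of all. It was no longer called without CD44hi replicate 1 or 3 or without any 1 CD44lo array, and in those fits few probe sets of the whole table were. Whichever array is left out, an arm of the interaction rests on 1 array assumed to vary like the others. The size of the change for Fas then lay between -1.09 and -0.97. The Fas ligand gene Fasl stayed near the background, at 4.14 to 4.19 in CD44hi and 4.02 to 4.16 in CD44lo as means of its 2 probe sets.

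Tnfsf9, the ligand gene of CD137, was the other superfamily gene with such a change, in the opposite sense. It had 9.09, 8.75, 9.11 and 8.80 in CD44hi, against 8.43, 8.81, 8.36 and 8.77 in CD44lo. CD44hi exceeded CD44lo by 0.70 between arrays 1 and 3, and the groups differed by -0.01 between arrays 2 and 4. The change between the sets was 0.72 (SE 0.11, limma interaction adjusted p = 0.0445), and its call was lost with median centring (adjusted p = 0.0548), an intensity trend (0.0619) or array weights (0.0537), and without any 1 array other than CD44hi replicate 4 (0.0519 to 0.201). The labels do not say what the replicate numbers stand for. Among the markers of other cell types, Cd74, the MHC class II invariant chain gene of antigen-presenting cells, moved by number in the sense of Tnfsf9. It had 7.67, 6.47, 7.74 and 6.50 in CD44hi, against 6.73, 6.46, 6.87 and 6.66 in CD44lo, and the change between the sets was 0.98 (SE 0.14, limma interaction adjusted p = 0.0384). Both probe sets of H2-Aa, an MHC class II chain gene, changed in the sense opposite to Cd74, by -0.44 and -0.24. So did both of Ms4a1, the CD20 gene of B cells, by -0.94 and -1.32. None of these was called (limma interaction adjusted p from 0.149 to 0.674). The part of Cd74 in the changes of Fas and Tnfsf9 was not tested.

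Across both groups, 2 of the 14 probe sets differed between arrays numbered 1 and 3 and arrays numbered 2 and 4, as did 24.2% of all probe sets. The bright probe set of Tnfrsf1b was lower at numbers 1 and 3 by 0.36 on the log2 scale, a difference of -0.36 (SE 0.06, limma adjusted p = 0.0051), and Lta had a difference of -0.34 (SE 0.10, limma adjusted p = 0.0458), which kept its call with 1 probe set per gene (0.0419) and without CD44lo replicate 4 (0.0354) and lost it in the other alternatives that tested it (0.0508 to 0.119). The Actb control probe sets at the 3′ and 5′ ends of the transcript, whose log2 ratio (3′ over 5′) is a sign of RNA quality, had a ratio that was 0.38 to 0.53 on arrays 1 and 3 and 0.56 to 0.79 on arrays 2 and 4, and its part in these differences was not tested.

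**Figure D3:**
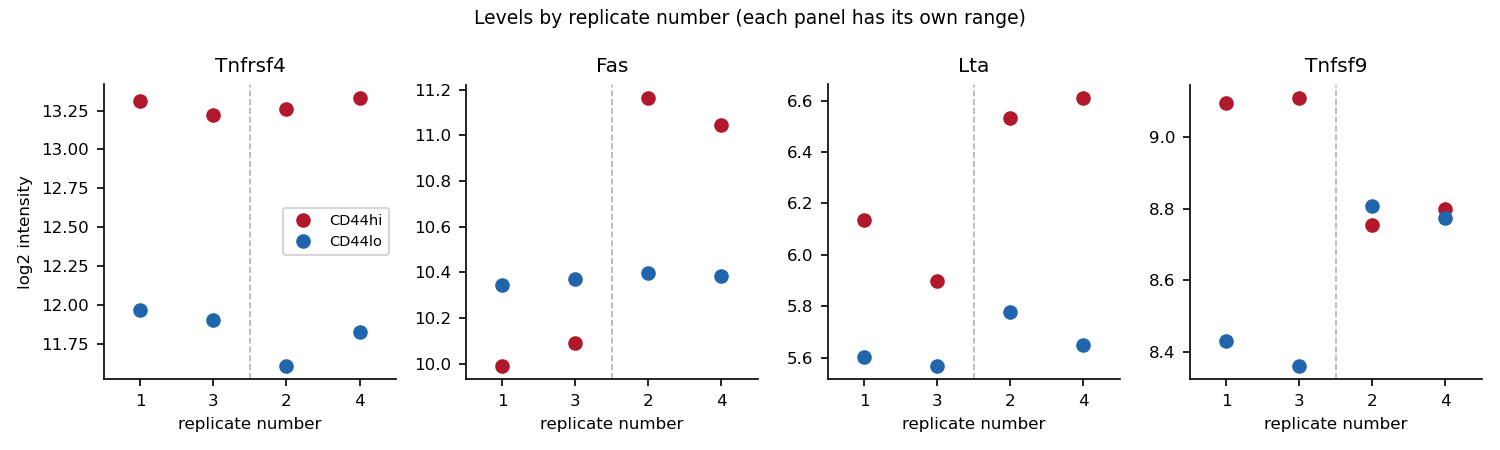
Log2 intensity of Tnfrsf4, Fas, Lta and Tnfsf9 in CD44hi (red) and CD44lo (blue), with replicate numbers 1 and 3 to the left of the dashed line and 2 and 4 to its right; each panel has its own vertical range. Tnfrsf4 is separated at every number, Fas changes sides between 10.09 and 11.05 in CD44hi, and Tnfsf9 is separated at numbers 1 and 3.

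Among the ligands, Lta came closest to a call. Lta codes for lymphotoxin alpha, which is secreted as a homotrimer or held at the membrane by lymphotoxin beta. It had 6.14, 6.53, 5.90 and 6.61 in CD44hi, against 5.60, 5.78, 5.57 and 5.65 in CD44lo. Every CD44hi value lay above every CD44lo value, and the CD44hi values at numbers 2 and 4 were the highest. The difference of 0.64 (SE 0.16, 95% interval 0.29 to 1.00) did not pass over all probe sets (limma adjusted p = 0.0707). It passed with the replicate number as a block (limma adjusted p = 0.0273), by which 5.15% of all probe sets were called, with odd and even numbers as a block (0.0070), with arrays 2 and 4 alone (0.0228) and without CD44hi replicate 3 (0.0211). It did not pass with arrays 1 and 3, and 2 and 4, averaged (0.821). RMA, the authors' summary method, is known to compress differences at low levels, so the size for Lta is uncertain.

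Ltb, the gene of the membrane partner of Lta, had 11.18, 11.06, 11.20 and 11.50 in CD44hi, against 11.28, 11.29, 11.31 and 11.44 in CD44lo. The groups overlapped, and the difference was -0.10 (95% interval -0.33 to 0.14, limma adjusted p = 0.850). Tnf, the gene of the founding ligand, lies between Ltb and Lta on chromosome 17 and was at 10.84 ± 0.12 for CD44hi and 10.59 ± 0.22 for CD44lo (SD, n = 4 each) without passing (limma adjusted p = 0.473). Outside this cluster, Lst1 differed by -0.27, Nfkbil1 by 0.12 and Atp6v1g2 by -0.22, and none of these genes was called. Tnfsf14 codes for LIGHT, a ligand of the lymphotoxin beta receptor and of HVEM, and its probe sets differed by 0.04 and -0.08 at levels between 4.81 and 5.97 on single arrays. The genes of both these receptors of LIGHT lay below the array medians too: Ltbr averaged 5.81 in CD44hi and 5.92 in CD44lo, and Tnfrsf14, the HVEM gene, 5.85 in CD44hi and 5.95 in CD44lo. Neither was called.

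Over the 10 members, each by its brightest probe set, the median difference was 0.12, against -0.0001 over all 12393 genes. The range was from -0.10, for Cd27 and Ltb, to 1.46 for Tnfrsf4. Of 29 other superfamily genes measured, 1 rose and 0 fell in CD44hi, with a median of 0.075, while 4.00% of all genes had a called probe set and 2.12% one that was higher. The one that rose was Tnfrsf8, which codes for CD30, a receptor of activated lymphocytes and of some lymphomas. It had 7.80, 7.36, 7.55 and 7.84 in CD44hi, against 6.91, 7.07, 7.03 and 6.75 in CD44lo, without overlap. The difference was 0.70 (SE 0.13, limma adjusted p = 0.0197). Its call was lost without CD44hi replicate 1 or CD44lo replicate 1, 3 or 4 (adjusted p from 0.0523 to 0.0671). It was also lost with arrays 2 and 4 alone (limma adjusted p = 0.183) and with averaged arrays (0.236). Tnfrsf13c, the gene of the BAFF receptor of B cells, was lower in every CD44hi array (11.38 to 11.66) than in every CD44lo array (11.81 to 12.01), and its difference of -0.36 did not pass (limma adjusted p = 0.0839). The death domain receptor gene Tnfrsf21 differed by 0.52 with 1 probe set (limma adjusted p = 0.170) and by 0.06 with the other, and the brightest Ngfr probe set by 0.18 (limma adjusted p = 0.473).

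Of 28 signalling genes measured behind these receptors, 1 rose and 0 fell, a share close to the 4.00% of all genes called, and the median difference was 0.004. The one that rose was Rel, the c-Rel subunit of NF-kappaB that acts in lymphocyte activation. It had 9.31, 10.02, 9.35 and 9.83 in CD44hi, against 8.71, 8.61, 8.80 and 8.52 in CD44lo, and the groups did not overlap. The difference of 0.97 (SE 0.17, limma adjusted p = 0.0142) lost its call without CD44lo replicate 2 or 4 (0.0523 and 0.0562) and with averaged arrays (0.539). For Rel it was 0.58 at numbers 1 and 3 and 1.37 at numbers 2 and 4, a change that was not called (limma interaction adjusted p = 0.0573). With the replicate block 4 signalling genes rose, where 6.61% of all genes had a called probe set and 3.24% one that was higher. These were Rel, the TRAF family gene Traf4 (0.73, limma adjusted p = 0.0120, with its other probe set at 0.39), Cflar, whose product c-FLIP restrains caspase-8 at death receptors (0.48, adjusted p = 0.0276, with its other 3 probe sets at 0.10 to 0.18), and Nfkbia, the NF-kappaB inhibitor gene (0.48, adjusted p = 0.0125, with its other 3 at 0.22 to 0.31). Nfkb2 and Relb, the subunits of the alternative NF-kappaB pathway that costimulatory and lymphotoxin receptors feed, differed by 0.42 and 0.45 without passing in either fit.

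**Figure D4:**
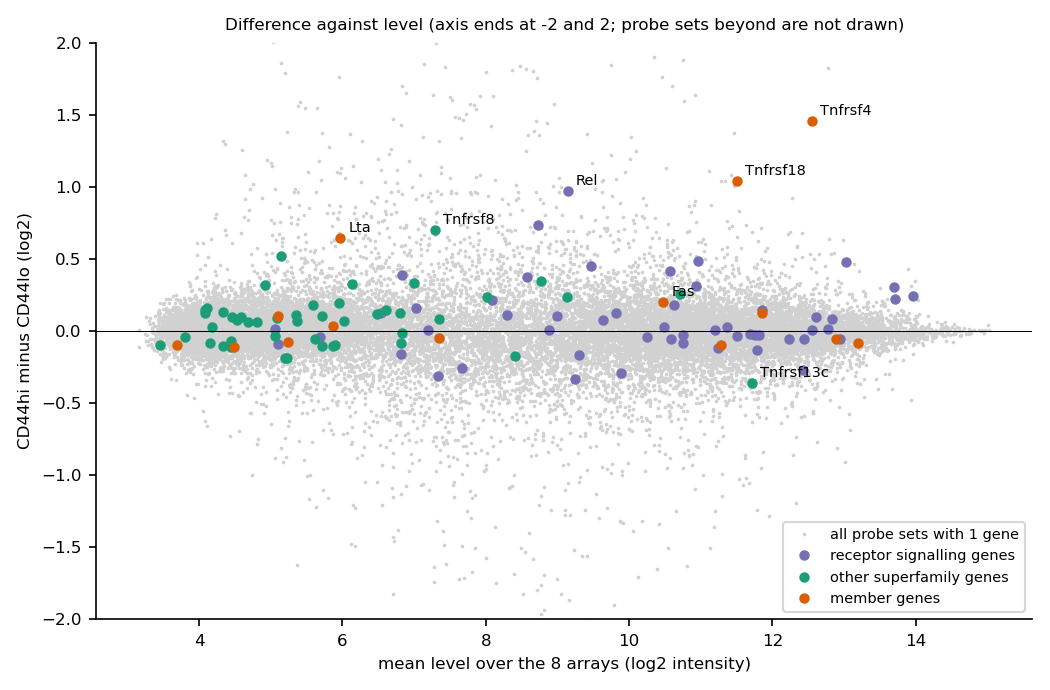
CD44hi minus CD44lo against the mean level over the 8 arrays, both in log2 intensity, for all probe sets with a single gene (grey), receptor signalling genes (violet), other superfamily genes (green) and the 10 member genes (orange). Tnfrsf4 at 1.46 and Tnfrsf18 at 1.04 stand at high levels, whereas most superfamily probe sets lie close to 0.

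The genes whose levels followed Tnfrsf4 most closely over the 8 arrays, among 10382 probe sets above the median level, were Pmm1 (Pearson's r = 0.997), Art3 and 2210016F16Rik (r = 0.996 for each). For Tnfrsf18 they were Art3 (r = 0.993), 2210016F16Rik (r = 0.991) and Cxcl10 (r = 0.990). These correlations rest mainly on the separation of the 2 groups, which all of these genes share. The differences of the genes ranged from 0.46 for Pmm1 to 4.22 for Art3.

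Since OX40 and GITR also mark regulatory T cells, markers of that type are given beside their rise. Of 7 measured, 1 was called, where 4.00% of all genes had a called probe set. It was Nrp1, a semaphorin coreceptor also found on other cells, which was higher in CD44hi by 0.52 (limma adjusted p = 0.0161) with its brightest probe set. The other 2 probe sets of Nrp1 differed by 0.54 and 0.55, without overlap of the groups, and were not called (limma adjusted p = 0.0682 and 0.0574). The Nrp1 call was lost without CD44hi replicate 3 (0.0502), without CD44lo replicate 1 (0.0595) or 3 (0.0642), with arrays 2 and 4 alone (0.226) and with averaged arrays (0.563). Foxp3, the transcription factor that defines the type, averaged 5.87 in CD44hi and 6.04 in CD44lo, and the probe sets of Il2ra, the high-affinity interleukin-2 receptor chain, 3.80 and 4.26 in CD44hi and 3.72 and 4.32 in CD44lo, at the background. The median difference of the 7 markers, each by its brightest probe set and with Il2ra at the background, was -0.13. Their summed linear intensity was 2038 to 2438 in CD44hi arrays and 1533 to 1764 in CD44lo arrays, most of it from Nrp1. For 7 B cell markers, of which 0 were called, the sums were 279 to 376 in CD44hi and 262 to 277 in CD44lo. Cd79a, the B cell receptor chain, averaged 5.32 in CD44hi and 5.49 in CD44lo, and the largest difference of the list was 1.31 for a probe set of Ms4a1, the CD20 gene, at 4.99 in CD44hi and 3.68 in CD44lo (limma adjusted p = 0.110). For natural killer cells (3 markers, 0 called) they were 64.6 to 72.5 in CD44hi and 51.5 to 63.4 in CD44lo. The brightest probe sets of these 3 genes had group means of 4.04 to 4.89, near the background. For 8 myeloid and dendritic, 5 stromal and 3 endothelial markers, of which 0 were called, the sums overlapped. The 3′ to 5′ log2 ratio of Gapdh was 0.76 to 0.88 in CD44hi and 0.65 to 0.73 in CD44lo, and neither its part nor that of other cells in the differences was tested.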

How the data were processed

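RNA of 8 samples was hybridised to 1-colour Affymetrix mouse arrays. Per the labels' protocols, the authors made the intensity of each probe set with RMA, which subtracts background, puts arrays on a common scale and combines probes; for its version, the sources used here give nothing. The deposited values lay between 7.61 and 36128, so they were read as linear, and log2 was taken of the deposited intensity with no offset. Groups and replicate numbers come from the sample titles. Of 22690 probe sets, 64 array controls were left out, and no filter on low values was used, so all 14 member probe sets were tested. The platform annotation gave 20380 probe sets 1 symbol, 691 several and 1555 none there.

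CD44hi was compared with CD44lo with limma 3.58.1 under R 4.3.3 (lmFit, then eBayes), without covariates, two-sided, with Benjamini-Hochberg adjustment over 22626 probe sets. A gene of a list counted as called if any probe set was. On 22626 simulated probe sets with 200 changed, on arrays drawn as independent (unlike the measured ones, which correlate by number), this fit recovered 42%, 74% and 96% of log2 changes of 0.5, 1 and 2, with 4.03% of calls false. The odd (1 and 3) against even (2 and 4) numbers, and their interaction with the group, were fitted likewise; that split was seen in the values and is no group of the study.

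The labels give both groups the replicate numbers 1 to 4. After subtraction of group means, CD44hi and CD44lo arrays 1 to 4 correlated with their namesakes over probe sets at 0.57, 0.39, 0.54 and 0.54. The main fit was nevertheless unpaired. A fit with the replicate number as a block was an alternative. The numbers come from the titles, which do not say that arrays of the same number belong together. Values with the replicate block stand beside results whose call they change. Arrays whose numbers differ but are both odd or both even correlated between the groups at 0.37 to 0.52. CD44lo array 2 was more like CD44hi array 4 (0.44) than CD44hi array 2 (0.39), so the values do not single out namesakes.

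The members, the lists of other superfamily, signalling and marker genes, and the tests were chosen with earlier results of these data known. Genes named are all members, called genes and the first 6 by p of each list, ligand or receptor partners, 2 genome neighbours on each side of both clusters and the 3 genes most alike in pattern for each called member. Thy1, Cd3d, Cd8a, Cd4, Nrp1, Foxp3, Il2ra, Cd79a, Ms4a1, H2-Aa and Cd74 were chosen after their values were seen. Motifs were searched in the RefSeq promoter table, and the motifs and the Lta promoter were chosen after the values were seen. A looser NF-kappaB pattern, which matched more promoters of members and of all genes, and an EBF1 pattern, which matched no member, were searched first and replaced or dropped. Alternatives were other scaling, an offset, a filter on dim probe sets, 1 probe set per gene, variance models, thresholds, fits by replicate number and leaving out each array.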

Additional observations from a re-analysis of the deposited data

Results flagged for a closer look

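The 50 probe sets examined were the 14 of the members and, for each other gene named except Cd8a, Cd4 and H2-Aa, the one with the lowest p. Among their 100 groups of 4 arrays, 3 held a single value at a distance from the rest, where chance alone would give about 1 in 20. These were the dimmer Tnfrsf1b probe set, with CD44lo replicate 1 at 7.08 while the group's remaining values ran between 7.42 and 7.48, Ltbr, with CD44hi replicate 2 at 6.17 above values of 5.65 to 5.74, and Cd3d, with CD44lo replicate 4 at 14.21 above values of 14.17 to 14.18.

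In 3 of the 50, the group difference changed between arrays numbered 1 and 3 and arrays numbered 2 and 4, as it did in 0.857% of all probe sets. Cd74 was added after its change had been seen. The change was -1.03 for Fas, 0.72 for Tnfsf9 and 0.98 for Cd74, all past the threshold of the limma interaction test (adjusted p = 0.0226, 0.0445 and 0.0384). Every difference of Fas was negative at numbers 1 and 3 (-0.36 and -0.28) and positive at 2 and 4 (0.76 and 0.66).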

How the results depend on the processing

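Of 311 values of the 14 member probe sets under alternatives, 292 kept direction and side of the threshold, 12 uncalled values changed sign without being called, 5 gained a call, 2 lost it and 0 called values reversed. The 2 lost calls were those of Tnfrsf4 and Tnfrsf18 with arrays 1 and 3, and 2 and 4, averaged; over the other alternatives Tnfrsf4 differed by 1.33 to 1.58 and Tnfrsf18 by 0.85 to 1.23. Against 2 member probe sets higher and 0 lower, 3 were higher with the replicate block and with odd and even numbers as a block, each of which added Lta, 4 with arrays 2 and 4 alone (Lta and Fas added) and 0 with averaged arrays. Against 1 other superfamily gene higher and 0 lower, counts were 0 higher for probe sets above the median level, at adjusted p under 0.01, with a log2 difference of at least 1, with arrays 2 and 4 alone and with averaged arrays. They were 2 higher and 1 lower with array weights, 3 higher and 1 lower with arrays 1 and 3 alone, and 1 lower with odd and even numbers as a block. Against 1 signalling gene higher and 0 lower, 3 were higher with array weights, 4 with the replicate block, 6 with odd and even numbers as a block, 4 (and 1 lower) with arrays 1 and 3 alone, 2 with arrays 2 and 4 alone, and 0 at adjusted p under 0.01, with a log2 difference of at least 1 and with averaged arrays. Against 2 member probe sets lower at odd numbers (Tnfrsf1b and Lta), 1 was lower with median centring or array weights, which lost Lta. Quantile normalization and the offset lost Lta and gained Tnfrsf9, and both intensity trends lost Lta and gained Tnfrsf9 and Fas, as did the test of probe sets above the median level, which leaves Lta out. Leaving out 1 array gave 2 to 3 member probe sets, 0 to 1 other superfamily genes and 0 to 2 signalling genes higher, 1 to 2 member probe sets lower at odd numbers and 0 to 1 with a changed difference. The thresholds use stricter calls, and averaging uses fewer values. The cause of the changes in these counts, including the loss of calls with averaging, was not tested. Over all probe sets, the main fit called 371 higher and 334 lower, array weights 620 and 656, the replicate block 571 and 594, odd and even numbers as a block 797 and 841, arrays 1 and 3 alone 561 and 561, averaged arrays 14 and 2, adjusted p under 0.01 201 and 160, and a log2 difference of at least 1 165 and 111. The level of Cd27, at the background, and the low levels of Tnfrsf1a, Tnfsf14 and Lta limit what can be seen of them.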
